A study of Mus musculus with 4 samples.

Results

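The genes described here are 10 mouse genes of protein folding and degradation in the endoplasmic reticulum (ER): Tmx3, Herpud1, Hspa5, Hsp90b1, Xbp1, Dnajb9, Pdia4, Creld2, Manf and Sdf2l1. They are 10 of the 21883 protein-coding genes placed by the RefSeq annotation used here. For each gene, ATF4 ChIP-seq peaks were taken whose summit, as the authors gave it, lay inside the gene or within 50 kb of either gene end. The members were chosen by function and selected on the fold and score of their peaks in these same lists, Tmx3 and Herpud1 for strong peaks, so the presence and height of peaks at the 10 genes are given as a description and carry no test. Chromatin came from primary cortical neurons of CD1 mouse embryos (E14.5 to E15), kept in culture to day 11 with cytosine arabinoside at 2 µM and transduced with lentivirus on day 6. The control library (shControl, genotype label WT) and the knock-down library (shOpa1, genotype label Opa1 knock-down) were each immunoprecipitated with an ATF4 antibody, and an IgG library and an input library of shControl neurons were not analysed here. Opa1 encodes a GTPase of the inner mitochondrial membrane, and the series describes its knock-down as mitochondrial stress.

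Each condition had 1 library, so differences between the lists have no replicate check. There were 93 peaks in the control list against 952 in that of the knock-down. Sequencing depth and calling threshold are not given in any source used here, and in bulk chromatin more bound cells and more binding per cell cannot be told apart. A peak's fold is the authors' enrichment over the caller's background and its tags are taken as the reads counted in it. Intervals on tags are exact 95% Poisson intervals, which cover counting error only. Tags were not always whole numbers (14.66 at the knock-down peak nearest to Xbp1), so in some peaks they may not be read counts. ChIP-seq does not measure expression, so neither the neuronal identity of the cultures nor the loss of Opa1 could be checked against marker levels.

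Proteins that enter the ER are folded by chaperones of the HSP70 and HSP90 families and by disulfide isomerases, and those that fail are passed back to the cytosol for degradation. When unfolded proteins build up, the sensors ATF6, IRE1 and PERK start the unfolded protein response. ATF6 and XBP1, the factor made after IRE1 splices its mRNA, act on chaperone genes through the ER stress response element (ERSE), whereas PERK acts through translation of ATF4. Other kinases that sense amino acid shortage or mitochondrial damage converge on ATF4 too, without the ATF6 and IRE1 arms. ATF4 pairs with C/EBP proteins on a composite element, TGATGNAA, in genes of amino acid supply and stress signalling.

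In the control list 2 of the 10 genes had a peak, Tmx3 and Herpud1. In the knock-down list 4 did: Tmx3, Herpud1, Hspa5 and Pdia4. Over all coding genes, the background was 0.928% with a peak inside or within 50 kb among control peaks and 6.23% among knock-down peaks. The other 6 genes had no such peak in either list. In all, the 4 genes carried 2 control and 6 knock-down peaks, and both control peaks overlapped a knock-down peak.

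**Figure D1:**
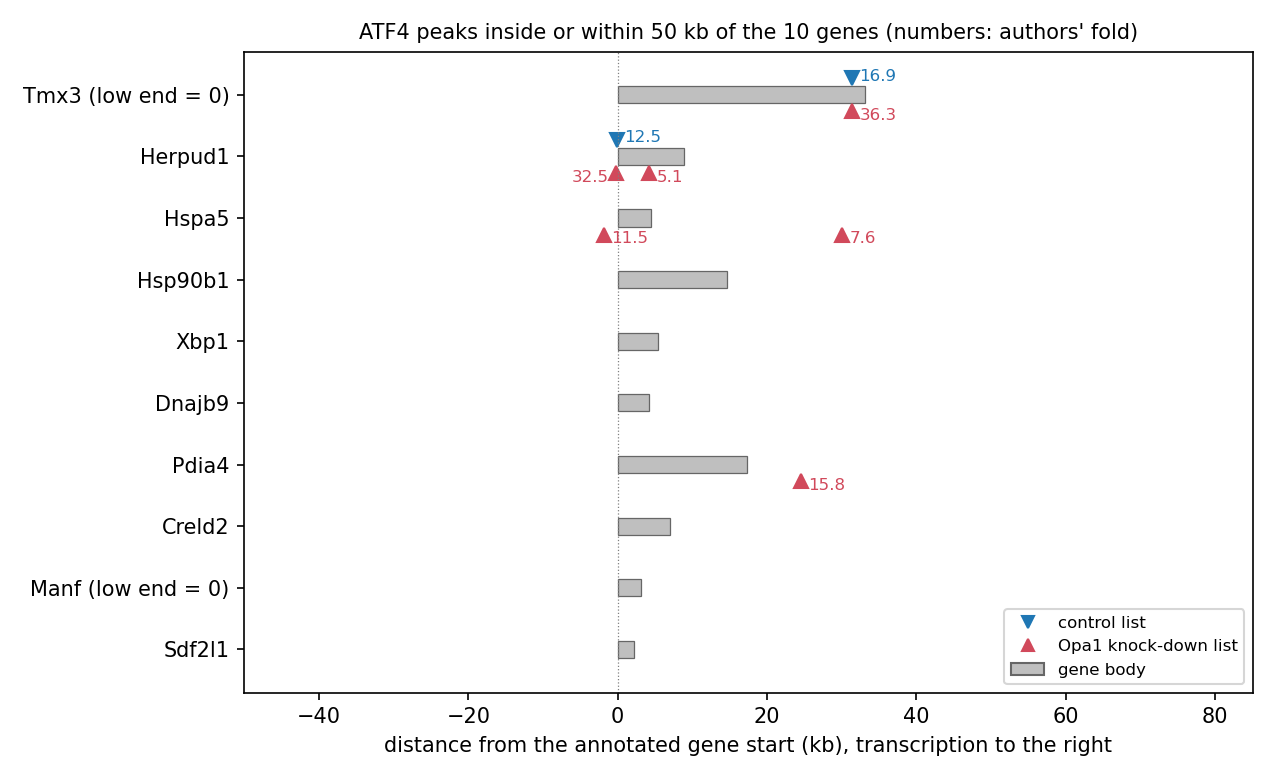
Position of each ATF4 peak relative to the 10 genes, in kb from the annotated start with transcription to the right (grey bars, gene bodies; triangles, peaks; numbers, the authors' fold). For Tmx3 and Manf, whose strand was not given in the table used, 0 is the end with the lower coordinate. Herpud1 was the gene with a peak at its start in both lists, and the Pdia4 peak lay past the 3' end.

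Herpud1 encodes a membrane protein of the ER that joins the ubiquitin ligase complexes of ER-associated degradation. Its main peak spanned chr8:94386036-94386609 (mm10) in control neurons and chr8:94385849-94386653 after Opa1 knock-down, and covered the gene's start in both. The summits lay 106 bp and 177 bp upstream of the annotated start. In the control list the peak had a fold of 12.54 and 38 tags (26.9 to 52.2), and ranked 11 by score. In the knock-down list it had a fold of 32.51 and 115 tags (94.9 to 138), and ranked 9 of 952. It was thus among the highest sites of both lists, in a gene of degradation. The Tmx3 site, in a disulfide isomerase gene, ranked above it by score in both lists.

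Promoter sequences from RefSeq (GRCm38.p6, whose chromosomes carry the mm10 coordinates) were searched on both strands, since they show which stress elements lie under or away from the peaks. Of the 10 genes 8 had a sequence, and each covers 250 bases before the start and 50 after it. The elements sought were the ATF4-C/EBP composite TGATGNAA, the ERSE (CCAAT and CCACG with 9 bases between), the ERSE-II (ATTGG and CCACG with 1 base between), the XBP1 element TGACGTGG and the cAMP response element TGACGTCA. The spelling TGACGCAA, a fusion of cAMP response element and C/EBP site, was added after the Herpud1 sequence had been seen. The 250 bases before the Herpud1 start are given first, with matched letters in capitals (5' to 3' on the gene's strand, chr8:94386179-94386428, plus strand).

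Herpud1: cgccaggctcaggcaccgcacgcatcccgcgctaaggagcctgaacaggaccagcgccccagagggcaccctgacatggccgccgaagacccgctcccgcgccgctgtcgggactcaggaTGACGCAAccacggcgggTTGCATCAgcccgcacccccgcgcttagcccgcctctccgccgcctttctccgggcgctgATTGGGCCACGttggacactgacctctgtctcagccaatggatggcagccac

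The Herpud1 promoter held 3 matches. TTGCATCA, which reads TGATGCAA on the other strand, lay 112 to 105 bases upstream of the start. TGACGCAA lay 130 to 123 bases upstream, and an ERSE-II 52 to 42 bases upstream. All 3 were inside the peak of both lists. The control summit fell within TTGCATCA, and the knock-down summit was 65 bp from it. For peaks like these the deposited summit is the midpoint of the interval and not a pile-up maximum, so the fit of summit to element has the resolution of the interval's edges. Among 21262 promoters of coding genes, 3.6% held TGATGNAA, 0.644% TGACGCAA and 0.0517% the ERSE-II. Herpud1 was chosen by function and for its strong peak, so these shares are a description and not a test.

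Herpud1 had a further peak in the knock-down list, inside the gene and 4255 bp past its start (chr8:94390443-94391021). Its fold was 5.05 and its tags 22 (13.8 to 33.3), and it ranked 908. It belongs to the smaller set of peaks whose score is on another scale, so its rank is not comparable with the others. Fold and tags in that set may be on another scale too, so its fold, tags and interval may not be comparable either. The internal peak overlapped no control peak.

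Hspa5 encodes BiP, the HSP70 chaperone of the ER lumen and the best known target of the unfolded protein response. It had a peak at chr2:34769953-34770596 (mm10) after knock-down, its fold being 11.47 with 51 tags (38.0 to 67.1) and its rank 166. The summit was 1815 bp upstream of the start, and the peak ended before the promoter sequence begins. No control peak overlapped it, and the nearest control summit on the chromosome was 1061251 bp away. A second knock-down peak, at chr2:34801856-34802501 with a fold of 7.61 and 26 tags (17.0 to 38.1), counted for Hspa5 at 25650 bp past its 3' end. That summit lay nearer to Rabepk, at 1983 bp.

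The Hspa5 promoter had an ERSE 65 to 47 bases upstream of the start and matched neither TGATGNAA nor TGACGCAA. Hsp90b1, which encodes GRP94, the HSP90 chaperone of the ER, had an ERSE at 212 to 194 and another at 107 to 89 bases upstream. Creld2, an ER stress-induced protein, had an ERSE 126 to 108 bases upstream. Dnajb9, a J-domain co-chaperone of BiP also called ERdj4, had TGACGCAA 140 to 133 bases upstream and no ERSE. These 4 promoters are given as a contrast to Herpud1. They are the other member promoters with a match, and none of them held a peak summit. Capitals mark the ERSE in the first 3 and TGACGCAA in Dnajb9 (250 bases before each start, 5' to 3' on the gene's strand; chr2:34771840-34772089, plus; chr10:86705445-86705694, minus; chr15:88819396-88819645, plus; chr12:44210069-44210318, minus).

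Hspa5: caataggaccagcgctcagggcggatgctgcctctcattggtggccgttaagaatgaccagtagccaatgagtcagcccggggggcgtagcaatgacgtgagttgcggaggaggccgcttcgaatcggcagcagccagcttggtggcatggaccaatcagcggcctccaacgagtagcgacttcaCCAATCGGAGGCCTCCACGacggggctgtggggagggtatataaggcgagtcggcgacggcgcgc
Hsp90b1: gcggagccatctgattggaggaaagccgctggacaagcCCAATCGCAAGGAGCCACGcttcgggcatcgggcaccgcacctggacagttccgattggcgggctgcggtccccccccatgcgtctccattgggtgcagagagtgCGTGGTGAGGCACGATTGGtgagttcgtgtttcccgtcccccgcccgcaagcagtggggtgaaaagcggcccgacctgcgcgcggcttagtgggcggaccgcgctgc
Creld2: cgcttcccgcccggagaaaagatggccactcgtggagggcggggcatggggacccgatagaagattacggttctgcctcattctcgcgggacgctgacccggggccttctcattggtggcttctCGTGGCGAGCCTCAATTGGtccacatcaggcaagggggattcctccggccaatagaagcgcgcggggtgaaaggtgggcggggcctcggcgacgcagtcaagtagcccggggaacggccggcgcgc
Dnajb9: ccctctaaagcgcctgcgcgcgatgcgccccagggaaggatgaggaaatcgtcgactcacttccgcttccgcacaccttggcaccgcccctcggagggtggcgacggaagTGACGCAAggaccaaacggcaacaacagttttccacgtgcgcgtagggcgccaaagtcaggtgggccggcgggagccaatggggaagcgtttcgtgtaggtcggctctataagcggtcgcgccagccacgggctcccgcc

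An ERSE was thus found in 3 of the 8 member promoters, against 30 of 21262 coding promoters (0.141%). The ERSE is an element of ER chaperone genes, and the members were chosen by function. These shares are therefore a description and not a test. The ATF4-C/EBP element was found in 1 of 8, Herpud1. The promoters of Pdia4, Xbp1 and Sdf2l1 matched none of the 6 spellings. A match is a run of letters and not a measured site, and a missing match says only that these letters are not in the window.

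**Figure D2:**
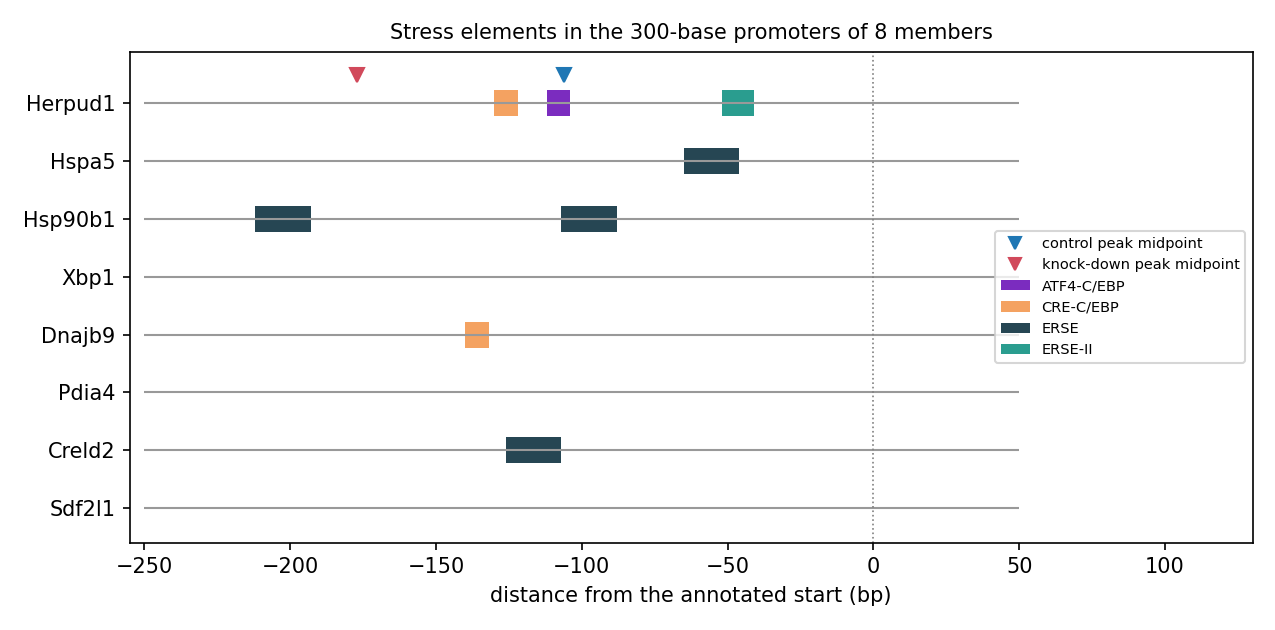
Matches to the stress elements in the 300-base promoters of the 8 genes with a sequence, in bp from the annotated start (boxes, matches on either strand; triangles, midpoints of the shared Herpud1 peak). Herpud1 carries the ATF4-C/EBP match at 112 to 105 bases upstream, while Hspa5, Hsp90b1 and Creld2 carry ERSE matches.

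The same search was made in every coding promoter that held a peak summit. A knock-down summit lay inside 39 coding promoters, of 38 genes. TGATGNAA was in 24 of these 39 (61.5%) and TGACGCAA in 12 (30.8%). A control summit lay inside 11 promoters, and 8 of them (72.7%) held TGATGNAA. None of the 39 held an ERSE, the XBP1 element or a cAMP response element, and 1 of them, Herpud1, held an ERSE-II. With an element as rare as the ERSE, 0 of 39 does not show depletion. Of the 29 genes with an ERSE in a promoter, 5 had a knock-down peak inside or within 50 kb (Hspa5, Calr, Canx, Pan2 and Hnrnpa3), where the share of all coding genes was 6.23%. Hspa5 and Pan2 were the 2 with one inside or within 5 kb, beside 2.66% of coding genes. In the control list 0 of the 29 had a peak within 50 kb, beside 0.928%. Hspa5 is a member, selected on these same lists, and the Calr and Canx peaks lay nearer to another gene. These counts are a description.

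Pdia4 encodes ERp72, a disulfide isomerase of the ER lumen with several thioredoxin-like domains. Its peak, at chr6:47788617-47789322 (mm10) in the knock-down list, had a fold of 15.78, 54 tags (40.6 to 70.5) and rank 86. The gene runs on the minus strand, so the summit lay 7171 bp past the 3' end and 24542 bp from the start. Pdia4 was still the nearest coding gene. No control peak overlapped the site.

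Whether sites of this height usually had a control partner was read from the knock-down peaks ranked just above and below. Of the 100 peaks within 50 ranks of the Pdia4 site, 28 overlapped a control peak. Around the upstream Hspa5 site 8 of 100 did, and around the distal Hspa5 site 1 of 100. A missing control partner was thus the usual state of peaks at these ranks, and with depth unknown it does not show that control neurons lacked binding.

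Tmx3 encodes a disulfide isomerase that spans the ER membrane. Its peak was the first of the control list by score, at chr18:90541164-90541884 (mm10), and the second of the knock-down list, at chr18:90540967-90542103. In the control list it had a fold of 16.94, tied for the highest of the list, and 80 tags (63.4 to 99.6), the highest number in that list. In the knock-down list it had a fold of 36.33 and 194 tags (168 to 223), rank 4 by fold and rank 2 by tags. The summits were 11 bp apart. They lay inside the gene, 1742 bp and 1731 bp from its end with the higher coordinate and over 31 kb from the other end (31371 and 31382 bp). The strand of Tmx3 was not in the table used, so which of these ends is the start is not stated here. No other annotated gene held the summit.

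**Figure D3:**
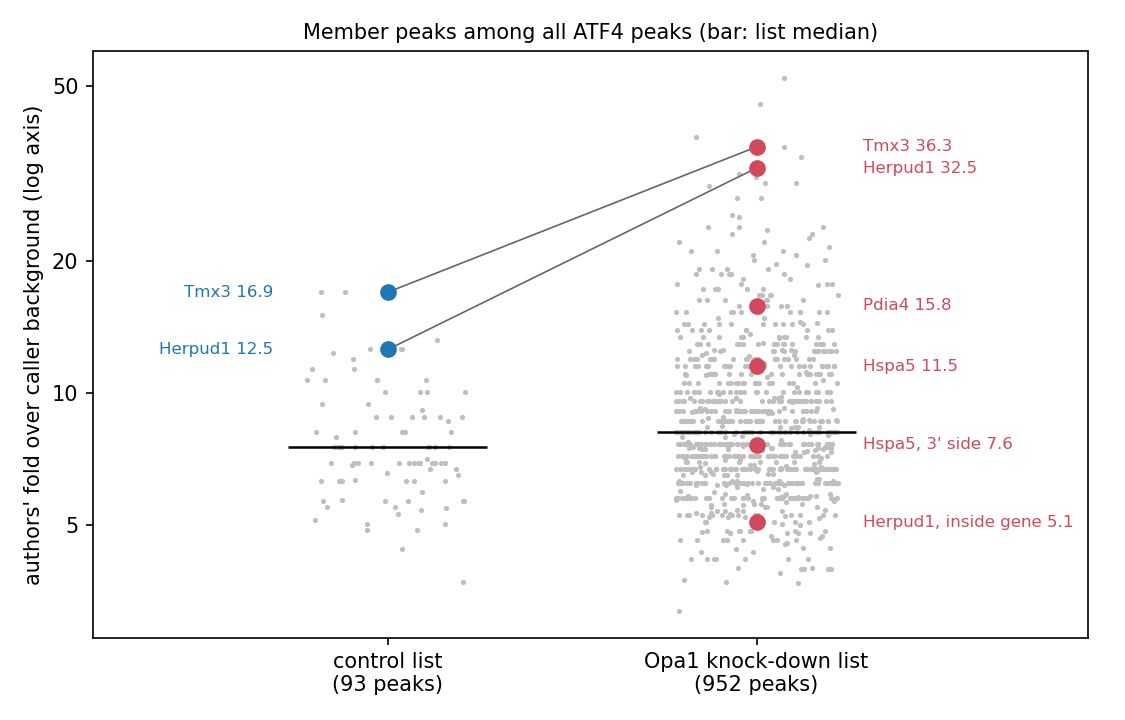
The authors' fold of every member peak (coloured points) over all peaks of each list (grey points, log axis; bar, median of 7.53 for control and 8.13 for knock-down peaks). Lines join the 2 sites present in both lists. The Tmx3 and Herpud1 sites stand near the top of both lists, and the distal Hspa5 and internal Herpud1 peaks fall under the knock-down median. The fold of the internal Herpud1 peak may be on another scale.

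The shared sites allow the height of Tmx3 and Herpud1 to be set beside other sites. The knock-down fold was 2.14 times the control fold at Tmx3 and 2.59 times at Herpud1. Over the 80 sites in both lists the ratio ran from 0.762 to 5.08 with a median of 2.26, and the middle 50% of sites lay between 1.77 and 2.63. Tmx3 ranked 47 and Herpud1 22 of 80, so both lay within that middle 50%. Some of the 80 pairs may hold a peak whose fold is on another scale, but the Tmx3 and main Herpud1 peaks are not among these. The ratio of tags was 2.42 at Tmx3 (95% Clopper-Pearson interval on the split of tags, 1.86 to 3.19) and 3.03 at Herpud1 (2.08 to 4.49), against a median of 2.75. Tags were counted over intervals called separately in each list, which widened from 721 to 1137 bp at Tmx3 and from 574 to 805 bp at Herpud1. Per kb of peak, the Tmx3 site had 111 and 171 tags, a ratio of 1.54. The Herpud1 site had 66.2 and 143, a ratio of 2.16. Over the 80 sites the median of this ratio was 1.53 and the middle 50% lay between 1.3 and 1.76. Tmx3 was within that range and Herpud1 above it. The tag ratios are not scaled for depth, and neither folds nor tags of separately called lists are a measured change in binding.

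**Figure D4:**
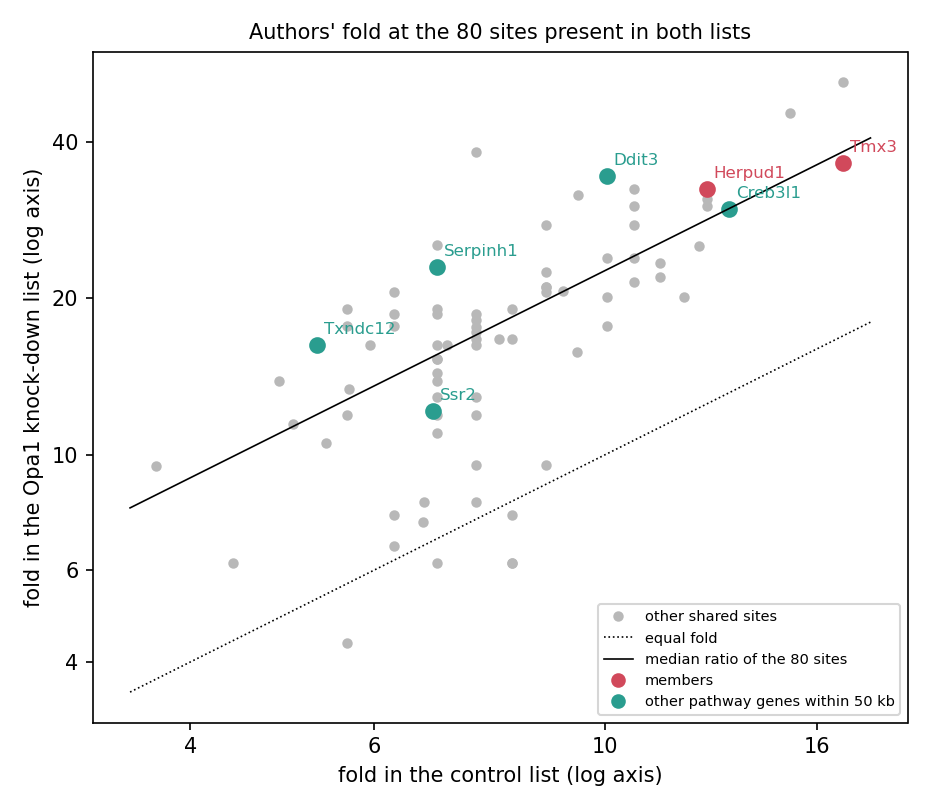
The authors' fold in the control list against that in the knock-down list at the 80 shared sites (log axes; dotted line, equal fold; solid line, the median ratio of 2.26). Tmx3 and Herpud1 lie close to the solid line at its upper end.

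By distance on the log2 fold of both lists, over these 2 libraries, the sites most like Tmx3 had Chac1 (0.36), Herpud1 (0.46) and Creb3l1 (0.47) as their nearest coding gene. Those most like Herpud1 had Nup62 (0.07), Aars (0.11) and Creb3l1 (0.15). Chac1 encodes a glutathione-degrading enzyme, Aars the alanyl-tRNA synthetase and Nup62 a nuclear pore protein. Creb3l1 encodes an ER-tethered transcription factor, and its site was 31554 bp from the gene in the control list.

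The 6 genes without a peak were Hsp90b1, Xbp1, Dnajb9, Creld2, Manf and Sdf2l1. Xbp1 encodes the transcription factor of the IRE1 arm, Manf a small secreted protein that resides in the ER, and Sdf2l1 a partner of BiP complexes. Their nearest knock-down summit was 1783533 bp away for Creld2, 1894816 bp for Manf and 3157552 bp for Hsp90b1. It was 4235053 bp away for Sdf2l1, 4628179 bp for Dnajb9 and 6510479 bp for Xbp1. Over coding genes on chromosomes with peaks, the median distance was 909 kb to a knock-down summit and 7430 kb to a control summit. All 6 therefore lay farther than the median gene from a knock-down peak. They were grouped by having no peak within 50 kb, whereas the median includes genes with one, so this is a description. The closest control summits were 1783594 bp from Creld2, 4152526 bp from Manf and 4628105 bp from Dnajb9, all nearer than the control median. Those of Sdf2l1 (18923238 bp), Hsp90b1 (24454884 bp) and Xbp1 (81165679 bp) were farther than it. No member changed status between 50 kb and 100 kb: the member peak farthest inside the window was the distal Hspa5 peak at 25650 bp, and the nearest outside it was a knock-down peak 118022 bp from Herpud1, with a fold of 9.08 and 30 tags.

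The wider pathway was taken from 5 lists of 89 genes in all, which include the 10 members. Of the 89, 7 had a control peak inside or within 50 kb and 19 a knock-down peak (7.87% and 21.3%, beside the 0.928% and 6.23% of all coding genes). Without the members the counts were 5 and 15 of 79. With a window of 5 kb they were 4 and 10 of 89, beside 0.324% and 2.66% of coding genes. With a fold of at least 10 in the 50 kb window they were 4 and 12 of 89, beside 0.279% and 2.23% of coding genes. The lists were compiled with results of these data known and hold genes known to respond to ATF4, so the shares are a description.

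**Figure D5:**
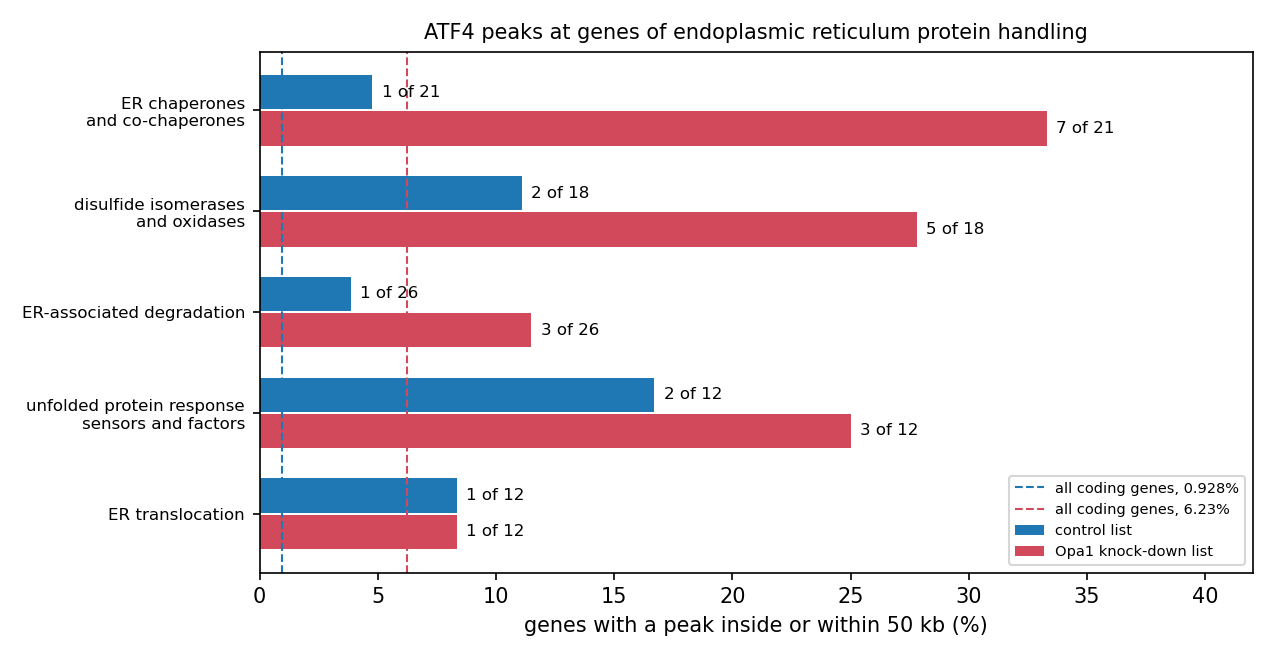
Share of genes with an ATF4 peak inside or within 50 kb in each of the 5 lists (bars, percent; labels, genes with a peak of genes in the list; dashed lines, the share of all coding genes). ER chaperones had the highest share in the knock-down list, 7 of 21.

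Among ER chaperones and co-chaperones 1 of 21 genes had a control peak and 7 a knock-down peak. These are 4.76% and 33.3%, beside 0.928% and 6.23% of all coding genes. Serpinh1, the collagen chaperone HSP47, was the one in both, with a site 7094 bp upstream of its start in the control list. Its fold was 6.9 with 28 tags (18.6 to 40.5) among control peaks and 22.95 with 85 tags (67.9 to 105) after knock-down. Dnajc10, the disulfide reductase ERdj5, had a knock-down peak inside the gene with a fold of 10.85. Cdnf, the paralog of Manf, had a weaker one 50 bp upstream of its start, with a fold of 7.65 and 22 tags (13.8 to 33.3). The Cdnf promoter held TGATGNAA on the other strand at 202 to 195 bases upstream and TGACGCAA at 31 to 24, both inside the peak. Beside Hspa5, described above, the other 3 genes of this list had their peak nearer to another gene. That of Calr, at a fold of 7.65, was nearest to Dand5, that of Canx (6.69) lay inside Cby3, and that of Creld1 (6.69) inside Jagn1.

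Disulfide isomerases and oxidases had 2 of 18 genes with a control peak and 5 of 18 with a knock-down peak. These are 11.1% and 27.8%, beside 0.928% and 6.23% of all coding genes. Txndc12, which encodes the thioredoxin-like protein ERp18, shared a site in both lists with folds of 5.29 and 16.25. Its summit was 503 bp upstream of the Txndc12 start in the control list and inside the neighbouring gene Btf3l4, so the site cannot be given to either gene. Tmx4, a relative of Tmx3, had a knock-down peak 1057 bp upstream of its start with a fold of 6.86. Ero1a, the oxidase that recharges the isomerases, had one 7040 bp upstream with a fold of 8.6, nearer to Psmc6.

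In ER-associated degradation 1 of 26 genes had a control peak and 3 a knock-down peak. These are 3.85% and 11.5%, beside 0.928% and 6.23% of all coding genes. Without Herpud1 the counts were 0 and 2 of 25. Beside Herpud1 the genes with a knock-down peak were Sel1l and Derl1. Sel1l, the adaptor of the HRD1 ligase, had a fold of 11.47 inside the gene, and Derl1 is a channel component. The Derl1 site had a fold of 18.17 and was 14414 bp from the gene but 4853 bp from Tbc1d31. Of the 12 sensors and factors of the unfolded protein response, 2 had a control peak (16.7%) and 3 a knock-down peak (25%). The shares of all coding genes were 0.928% and 6.23%. Creb3l1 was counted in both lists for a site 31554 bp from the gene in the control list, with folds of 13.17 and 29.64. Ddit3, which encodes CHOP, had a site 267 bp upstream of its start in the control list that also lay inside Mbd6, with folds of 10.04 and 34.42. Ern1, which encodes the sensor IRE1, had a knock-down peak inside the gene with a fold of 7.01. Of the translocation genes 1 of 12, Ssr2, had a site in both lists, and it lay inside Arhgef2, 27764 bp from Ssr2 in the control list. That is 8.33% in each list, beside 0.928% and 6.23% of all coding genes.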

How the data were processed

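ATF4 ChIP-seq peak lists of 2 libraries, 1 per condition, were analysed. The submitters' processing notes name build mm10, MACS2 for the peaks, MultiQC and deepTools. No source used here gives the aligner, control library, threshold or depth. Each peak's rank, p-value score, fold (a ratio over the caller's background), length, summit and tags were deposited by the authors in 1 text field. Lists were tied to libraries by the hairpin their names give. In 84 control and 886 knock-down peaks the deposited length equals the interval, and in all of these the summit is within 1 bp of its midpoint. In the other 9 and 66 peaks the score is on another scale, and the fold and tags may be too.

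Summits were set against RefSeq genes of GRCm38.p6. Strand came from the promoter table. All 89 pathway genes were matched, 2 of them by an older symbol, and 73 had a promoter sequence, as did 17491 of 21883 coding genes. Sites were shared at an overlap of at least 1 bp. No test was run, since each condition has 1 library and the members were chosen on these values. Members and lists were chosen with earlier results of these data known. Named were all members, list genes with a peak within 50 kb, genes nearer to or holding their summits, and for each shared member site the 3 closest sites in log2 fold. Pan2, Hnrnpa3 and the spelling TGACGCAA were added after values were seen. Counting, overlap and letter matching were tested on simulated peaks and sequences. Alternatives covered the window, score, fold, overlap, nearest-gene rule and spelling. The work was done in Python 3.11.15 with pandas 2.3.3, numpy 2.4.6, matplotlib 3.10.9 and scipy 1.17.1.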

Additional observations from a re-analysis of the deposited data

How the results depend on the processing

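The members with a peak were 2 in the control list under all 7 alternatives. In the knock-down list they were 4 under 6 alternatives and 3 with a window of 5 kb, which leaves out Pdia4. The member sites shared by both lists were 2 under all 5 alternatives. Member promoters with the ATF4-C/EBP element were 1 with TGATGCAA alone and 2 with TGACGCAA counted too, which adds Dnajb9. For the 89 pathway genes, the 7 in the control list became 4 with a window of 5 kb and 4 with a fold of at least 10. The 19 in the knock-down list became 10 and 12 under these settings, with fewer peaks or a narrower window entered by construction. The first score form alone, the lncRNA genes, the spelling TGACGCAA and all settings for the pathway genes were chosen after the data were seen. No paired analysis was possible because there was a single library for either condition. With depth unknown, the absence of a control peak sets no limit on binding there.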

Other observations

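Further values were found near factors of the unfolded protein response. Ddit3 had a second knock-down peak 15366 bp past its 3' end, with a fold of 12.91 and 50 tags (37.1 to 65.9), and its summit lay inside Mars1, the cytosolic methionyl-tRNA synthetase gene. The site for which Creb3l1 is the nearest coding gene had a fold of 13.17 and 58 tags in control neurons, where it ranked 3, and 29.64 with 103 tags after knock-down, where it ranked 14. Its summits were 135 bp apart.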
